A study of Mus musculus with 34 samples.

Results

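The genes that bring fatty acids into brown preadipocytes and bind them inside the cell were followed through 14 RNA-Seq libraries. The 9 genes were chosen by their function: *Lpl*, *Gpihbp1*, *Cd36*, *Slc27a1*, *Slc27a4*, *Acsl1*, *Acsl4*, *Fabp4* and *Fabp5*, of 23109 genes in the tables. Each gene was read from its RefSeq transcript with the highest mean RPKM, the a read count scaled to transcript length and library size. The rule that set the list used no measured value, but the genes were chosen with earlier results of these data known.

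All cells were mouse brown preadipocytes of strain C57BL/6J, immortalized with SV40T, from the interscapular brown fat of newborn pups. The labels call them GR-flox/flox cells, in which the glucocorticoid receptor gene can be deleted, and describe Vec or Cre retrovirus, whereas the study's methods describe WT pups, so which allele the cells carried could not be settled. In the first experiment, cells carried FLAG-tagged histone H3.3, either WT or the K36M mutant, in which lysine 36 is a methionine, from a retrovirus, and RNA was taken at D0, ahead of induction, and at D2 and D7 of adipogenesis. Induction used insulin, T3, IBMX, dexamethasone and indomethacin. In the second, the same WT and K36M cells also carried ectopic PPARγ and received DMSO or Rosi (rosiglitazone, a PPARγ ligand). The labels place DMSO at 0 h and Rosi at 24 h, while the study's legend gives one time for both, so ligand and time in culture cannot be told apart if the labels hold. In the third, cells carried a lentiviral control shRNA (Ctrl) or an *Nsd2* shRNA (Nsd2 KD), *Nsd2* being a methyltransferase for histone H3 lysine 36, and were collected at D0 and D2. Each condition had 1 library, so no single condition could be tested against another, and a model pooling K36M and WT cells over their 5 settings was not run. The intervals below are 95% counting intervals from reads recovered out of the RPKM, which compare 2 libraries and cover counting error only.

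Fatty acids reach fat cells mostly as triglyceride in circulating lipoproteins. Lipoprotein lipase, encoded by *Lpl* and secreted by adipocytes, cuts that triglyceride at the wall of the capillary, where endothelial *Gpihbp1* carries and anchors it. The released fatty acids enter with help from the scavenger receptor CD36 and the SLC27 fatty acid transport proteins, are joined to coenzyme A by long-chain acyl-CoA synthetases such as ACSL1 and ACSL4, and are carried through the cytosol by fatty acid binding proteins. FABP4, also called aP2, is the main form in adipocytes and FABP5 a second. Brown fat is known for taking up and burning fatty acids, and several of these genes are textbook targets of PPARγ.

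The libraries held 12213559 to 24365867 mapped reads, and 11013 to 12133 genes reached an RPKM of 1. *Nsd2* stood at 5.85 and 7.01 RPKM in Nsd2 KD cells at D0 and D2, against 19.9 and 29.0 in Ctrl cells, or 29.4% and 24.1% of the control. The 7 brown adipocyte markers added up to 4.60 to 35.5 RPKM. Of these, 4 reached 1 RPKM in a library (*Ebf2*, *Elovl3*, *Ppargc1a* and *Prdm16*), whereas *Ucp1*, *Cidea* and *Dio2* stayed under 1 in every library. The 6 adipocyte markers added up to 18.9 to 1000.4 RPKM, the 6 preadipocyte markers to 37.2 to 679 and the 6 macrophage markers in the tables to 0.455 to 8.28. The 7 endothelial markers added up to at most 2.47 RPKM and 6 of them stayed under 1. The 7 muscle markers, nearly all *Acta1*, added up to 71.6 and 64.8 RPKM in K36M cells with PPARγ (DMSO and Rosi) against 32.4 and 27.4 in WT cells with PPARγ, with *Myod1* and *Myog* under 0.1 in all 4. These 2 K36M libraries also listed more genes above 0 (20121 and 19981) than any other library (15868 to 18385). The part of these differences in the results below was not tested.

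RefSeq promoter entries were matched for 5 of the 9 genes. Those of *Cd36*, *Acsl1*, *Acsl4* and *Slc27a4* are shown to set genes with large ranges below beside steadier ones. *Slc27a1*, also among the steadier genes, had 3 starts and is not printed. Each sequence is the 250 bases before a transcript start in GRCm38.p6: chr5:17835897-17836146 on the minus strand for *Cd36*, chr8:46470787-46471036 on the plus strand for the first of 2 *Acsl1* starts, chrX:142390536-142390785 on the minus strand for *Acsl4*, and chr2:29802384-29802633 on the plus strand for *Slc27a4*. Capitals mark every match, on either strand, to 4 motifs. The first is the TATA box TATAAA, which 12.4% of 32851 promoters of this length held. The second is the CCAAT box, held by 33.8%. The third is the GC box GGGCGG, held by 32.7%. The last is the nuclear receptor half-site AGGTCA, held by 14%.
Cd36: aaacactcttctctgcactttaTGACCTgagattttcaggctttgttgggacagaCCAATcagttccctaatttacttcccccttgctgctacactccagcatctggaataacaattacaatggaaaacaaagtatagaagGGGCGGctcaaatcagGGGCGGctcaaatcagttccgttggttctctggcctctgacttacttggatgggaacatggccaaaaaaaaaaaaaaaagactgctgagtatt
Acsl1: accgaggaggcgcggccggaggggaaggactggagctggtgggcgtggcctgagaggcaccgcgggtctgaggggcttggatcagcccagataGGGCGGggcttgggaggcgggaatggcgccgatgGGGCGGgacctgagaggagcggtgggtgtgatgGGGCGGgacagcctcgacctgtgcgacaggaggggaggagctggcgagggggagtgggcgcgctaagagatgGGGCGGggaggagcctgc
Acsl4: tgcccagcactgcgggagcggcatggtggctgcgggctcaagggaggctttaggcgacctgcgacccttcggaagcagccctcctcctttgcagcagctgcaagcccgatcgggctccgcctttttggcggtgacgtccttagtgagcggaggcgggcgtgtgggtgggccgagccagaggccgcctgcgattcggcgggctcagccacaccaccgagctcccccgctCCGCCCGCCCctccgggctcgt
Slc27a4: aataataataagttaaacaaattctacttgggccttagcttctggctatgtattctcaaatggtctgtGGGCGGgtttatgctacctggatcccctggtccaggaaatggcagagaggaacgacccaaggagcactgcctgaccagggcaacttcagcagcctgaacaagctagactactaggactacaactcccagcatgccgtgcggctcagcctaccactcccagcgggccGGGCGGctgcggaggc

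The *Cd36* promoter held 3 CG dinucleotides, 1 CCAAT, 2 GC boxes and 1 half-site. The first *Acsl1* start held 20 CG dinucleotides and 4 GC boxes, *Acsl4* 25 CG dinucleotides and 2 GC boxes that overlap, and *Slc27a4* 8 CG dinucleotides and 2 GC boxes, against a median of 6 CG dinucleotides over all promoters. The second *Acsl1* start, not printed, differed, with 2 CG dinucleotides, 0 GC boxes and 2 CCAAT boxes. No TATAAA was found in the 4, and none held AGGTCANAGGTCA, the paired half-site of PPARγ, which 0.0335% of all promoters held. A match or its absence describes these letters in this window only.

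*Lpl* (RefSeq NM_008509, NCBIM37 chr8:71404390-71431347) ran from 11.5 to 2145 RPKM, a 187-fold range. In the adipogenesis libraries it measured 204, 2145 and 1817 RPKM in WT cells at D0, D2 and D7, and 55.5, 470.3 and 284 in K36M cells. Among cells with ectopic PPARγ, the WT pair held 71.0 (DMSO) and 599 (Rosi) RPKM, the K36M pair 49.7 and 229. Every K36M library was below its WT partner, and both kinds of cells were higher after induction than before. Ctrl cells held 22.2 RPKM at D0 and 1073 at D2, and Nsd2 KD cells 11.5 and 105. *Lpl* was already the most abundant of the 9 transcripts at D0 in WT cells, by length. The knockdown library at D2 (105 RPKM) was above its own uninduced control, Ctrl cells at D0 (22.2 RPKM). It was below uninduced WT cells of the first experiment (204 RPKM), which held 9.17-fold more *Lpl* than those Ctrl cells. In these bulk libraries, fewer cells of a kind and less RNA per cell cannot be told apart.

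*Gpihbp1* (NM_026730, NCBIM37 chr15:75427088-75428642), the capillary anchor of lipoprotein lipase, was all but undetected. It had 4 reads in WT cells at D7 (0.377 RPKM, interval 0.103 to 0.965), 1 read in K36M cells with PPARγ and DMSO (0.0515 RPKM), and 0 in the other 12 libraries, where 3 reads would have been 0.173 to 0.308 RPKM. It never reached 1 RPKM, and it entered no count below. The endothelial markers were also near 0.

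*Cd36* (NM_001159556, NCBIM37 chr5:17287508-17394777), the fatty acid translocase, spanned the widest range of the group. WT cells held 0.151 (11 reads), 36.5 and 112 RPKM on the 3 days, K36M cells 0.0889 (6 reads), 10.7 and 8.09. Among cells with PPARγ, the WT pair held 1.15 (DMSO) and 83.7 (Rosi) RPKM, the K36M pair 0.217 and 13.1. It was thus the one gene of the 9 whose WT level was over 2-fold higher at each step of adipogenesis, and its level with Rosi in WT cells lay between those of D2 and D7. In the knockdown experiment it measured 0.0149 RPKM (1 read) and 38.5 in Ctrl cells, and 0.0338 (2 reads) and 0.30 (18 reads) in Nsd2 KD cells. The knockdown library at D2 held 0.779% of the Ctrl level. Its 5 RefSeq transcripts, of 3399 to 3566 bases, had mean levels of 20.8 to 21.8 RPKM and share most reads, so they cannot be read as separate isoforms.

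*Fabp4* (NM_024406, NCBIM37 chr3:10204347-10208576) reached the highest level of the group. It measured 37.6, 3249 and 2644 RPKM in WT cells at D0, D2 and D7, and 18.5, 1473 and 143 in K36M cells. Among cells with PPARγ, the WT pair held 112 (DMSO) and 2505 (Rosi) RPKM, the K36M pair 69.4 and 1148. K36M cells thus held 45.3% of the WT level at D2 and 5.41% at D7. Ctrl cells had 14.8 and 1269 RPKM at D0 and D2, and Nsd2 KD cells 7.16 and 34.5.

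*Fabp5* (NM_010634, NCBIM37 chr3:10012548-10016607) lies near *Fabp4* on the same chromosome, and peaked at D2. WT cells had 14.9, 482 and 84.0 RPKM at D0, D2 and D7, and K36M cells 11.3, 37.7 and 5.01. Among cells with PPARγ, the WT pair held 35.1 (DMSO) and 89.6 (Rosi) RPKM, the K36M pair 18.3 and 30.2. The D2 peak of WT cells was the highest value and the D7 library of K36M cells the lowest of all 14, below every uninduced library. Ctrl cells had 18.5 and 358 RPKM, and Nsd2 KD cells 8.0 and 23.3. *Fabp5* has processed copies elsewhere in the mouse genome, and the counting program is not given in the sources used here, so reads shared with such copies make its level uncertain.

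*Acsl1* (NM_007981, NCBIM37 chr8:47556395-47621405), the leading long-chain acyl-CoA synthetase of adipocytes, was also highest at D2 in WT and in K36M cells. WT cells had 11.6, 402 and 205 RPKM at D0, D2 and D7, and K36M cells 6.44, 57.7 and 15.8. Among cells with PPARγ, the WT pair held 4.66 (DMSO) and 146 (Rosi) RPKM, the K36M pair 2.61 and 8.28. The K36M library with Rosi was thus above both libraries with PPARγ and DMSO, though below WT cells at D0 of the first experiment. Ctrl cells had 4.92 and 153 RPKM, and Nsd2 KD cells 2.17 and 12.9. *Acsl4* (NM_001033600, NCBIM37 chrX:138752536-138825078), which prefers arachidonate, varied only 10.7-fold. WT cells had 31.7, 66.7 and 31.7 RPKM, K36M cells 22.3, 34.3 and 18.3. It was below 16 RPKM in all 4 libraries with PPARγ, at 11.5 (DMSO) and 15.4 (Rosi) for the WT pair and 7.12 and 12.1 for the K36M pair. Ctrl cells had 11.0 and 27.0 RPKM and Nsd2 KD cells 6.22 and 20.5. D2 was the highest time in each of the 4 series.

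*Slc27a1* (NM_011977, NCBIM37 chr8:74092826-74110607), which encodes the fatty acid transporter FATP1, ordered the libraries differently. WT cells had 4.52, 4.93 and 9.94 RPKM at D0, D2 and D7, and K36M cells 4.70, 3.20 and 13.6, the highest of all. Among cells with PPARγ, the WT pair held 2.94 (DMSO) and 4.87 (Rosi) RPKM, the K36M pair 3.77 and 2.83. Ctrl cells had 3.82 and 2.57 RPKM at D0 and D2, and Nsd2 KD cells 10.9 and then 1.40, the lowest of all. *Slc27a4* (NM_011989, NCBIM37 chr2:29658154-29673042), encoding FATP4, was the steadiest, with a 2.46-fold range. WT cells had 8.17, 16.1 and 14.2 RPKM, K36M cells 9.10, 14.5 and 10.0. Among cells with PPARγ, the WT pair held 12.3 (DMSO) and 14 (Rosi) RPKM, the K36M pair 10.4 and 11.0. Ctrl cells had 11.3 and 17.6 RPKM and Nsd2 KD cells 7.14 and 15.4.

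**Figure D1:**
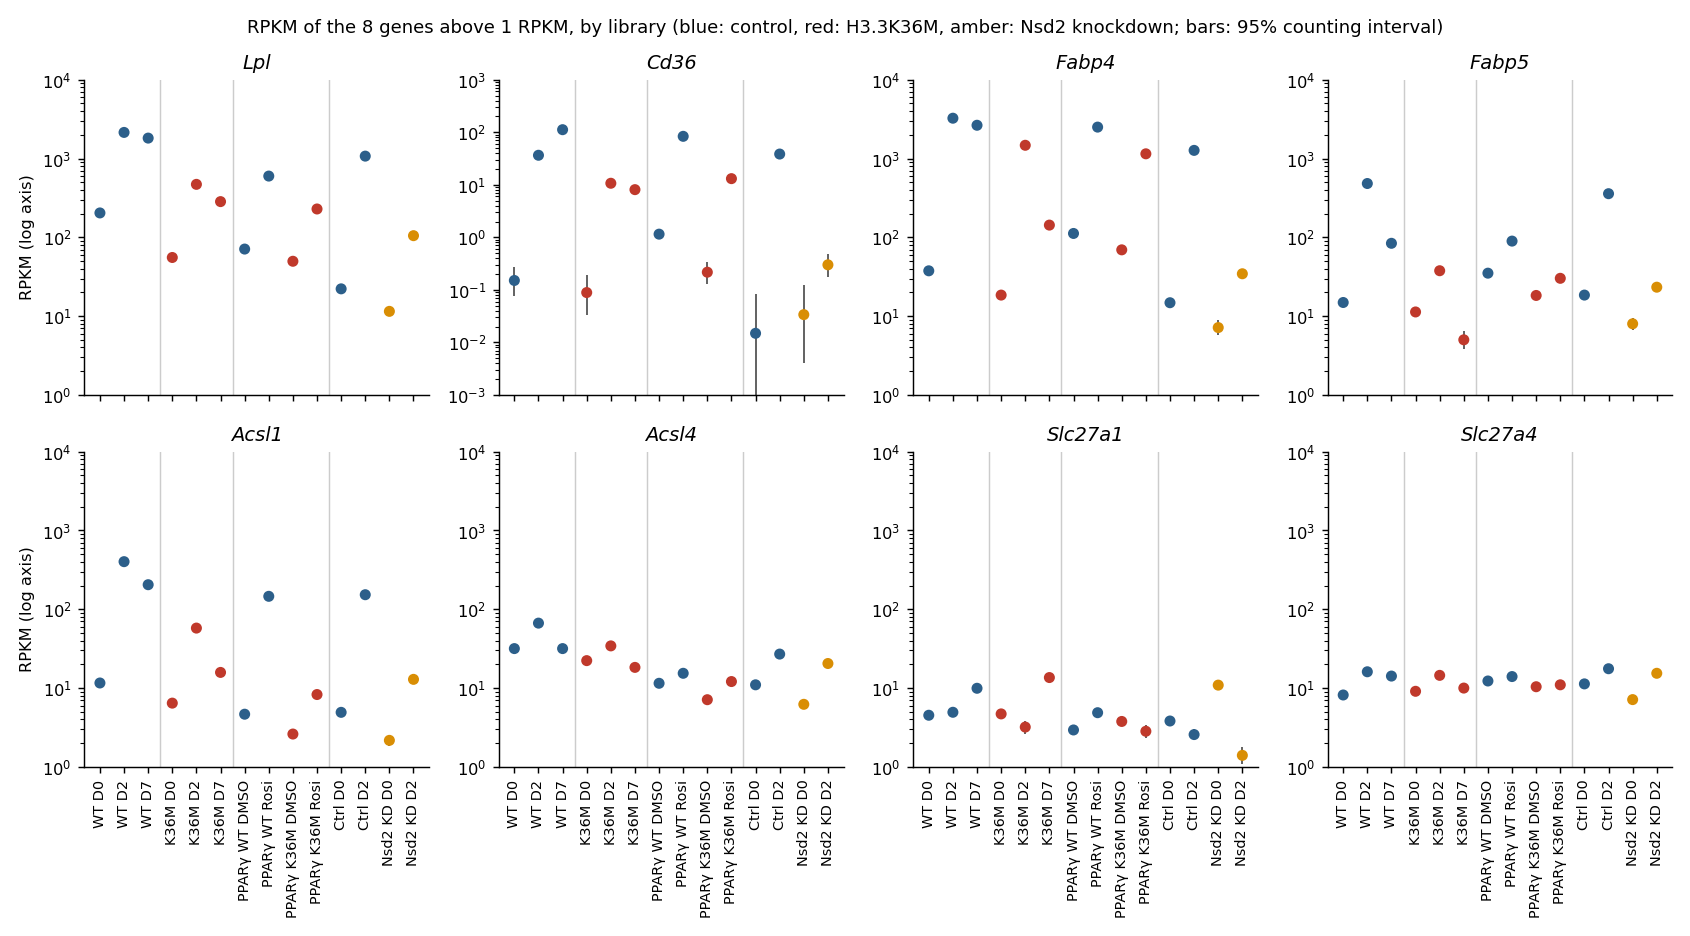
RPKM (log axes, *Cd36* on a lower range than the other panels) of the 8 genes that reached 1 RPKM, 1 point per library, with exact 95% Poisson counting intervals as bars, blue for control cells, red for K36M and amber for Nsd2 KD. *Lpl*, *Cd36*, *Fabp4*, *Fabp5* and *Acsl1* span 96.2-fold or more between libraries, whereas *Acsl4*, *Slc27a1* and *Slc27a4* stay within 10.7-fold.

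To see which of these genes belong to normal adipogenesis, D2 was compared with D0 in WT cells. *Lpl*, *Cd36*, *Fabp4*, *Fabp5*, *Acsl1* and *Acsl4*, 6 of the 8 genes that reached 1 RPKM in either library, were over 2-fold higher at D2 and 0 were lower. Of all 12155 genes counted the same way, 9.38% were higher and 17.3% lower. The fold was 241 for *Cd36* (log2 ratio 7.91, interval 7.07 to 8.92), 86.5 for *Fabp4* (6.43, 6.31 to 6.56), 34.5 for *Acsl1* and 32.2 for *Fabp5*. *Lpl*, starting from a high level, was 10.5-fold higher, *Acsl4* 2.10-fold and *Slc27a4* 1.97-fold, whose interval (0.84 to 1.11 on the log2 scale) spans the 2-fold line. The median log2 ratio was 4.20 over the 8 genes and -0.01 over all genes.

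Adipocyte markers added up to 22.7 RPKM at D0 and 456 at D2, and preadipocyte markers to 347 and 58.7.

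From D2 to D7 the WT cells parted into genes that held, gained and lost. *Cd36* was 3.08-fold and *Slc27a1* 2.02-fold higher at D7 (15.7% of 12182 genes were higher), the latter with an interval of 0.78 to 1.25 on the log2 scale. *Fabp5* was 5.73-fold and *Acsl4* 2.10-fold lower (5.08% of genes were lower). *Lpl* and *Fabp4* kept 84.7% and 81.4% of their D2 level, and *Acsl1* 51.1%. Over the same step all 6 preadipocyte markers were over 2-fold higher (summed 58.7 and 304 RPKM).

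In K36M cells, 5 of 8 genes were over 2-fold higher at D2 than at D0, namely *Lpl*, *Cd36*, *Fabp4*, *Fabp5* and *Acsl1*, and 0 were lower (10.2% and 11.2% of 12317 genes). The folds differed between genes when set beside those of WT cells. *Fabp4* was 79.4-fold higher in K36M cells and 86.5-fold in WT cells, and *Lpl* 8.48-fold and 10.5-fold. *Fabp5* was 3.32-fold higher in K36M cells against 32.2-fold in WT cells, a difference of -3.28 on the log2 scale, and *Acsl1* 8.96-fold against 34.5-fold, a difference of -1.95. The 2 binding proteins thus separated at D2. From D2 to D7, *Fabp4*, *Fabp5* and *Acsl1* were 10.3-, 7.52- and 3.65-fold lower in K36M cells (7.02% of 12466 genes were lower) and *Slc27a1* was 4.25-fold higher (15.7% were higher), while *Lpl* kept 60.3% and *Cd36* 75.9% of the D2 level.

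Setting K36M directly against WT cells at each day, 2 of 7 genes were over 2-fold lower at D0, *Lpl* (3.67-fold, log2 ratio -1.88, interval -1.92 to -1.83) and *Fabp4* (2.03-fold, interval -1.25 to -0.79, across the 2-fold line), with 0 higher. Of 12239 genes, 6.36% were lower and 5.02% higher. At D2, *Lpl*, *Cd36*, *Fabp4*, *Fabp5* and *Acsl1* were lower, 5 of 8 genes against 4.37% of 11964 genes, and 0 were higher (11.2%). The fold was 12.8 for *Fabp5*, 6.95 for *Acsl1*, 4.56 for *Lpl*, 3.42 for *Cd36* and 2.21 for *Fabp4*. At D7 the same 5 genes were lower (8.46% of 12587 genes were lower and 11.7% higher), by 18.5-fold for *Fabp4*, 16.8-fold for *Fabp5*, 13.9-fold for *Cd36*, 13-fold for *Acsl1* and 6.41-fold for *Lpl*. The median log2 ratio of the genes counted was -0.51, -1.46 and -3.19 on the 3 days, and 0.09, 0.07 and 0.12 over all genes. *Fabp4* had the smallest of the 5 differences at D2, while at D7 its interval (-4.30 to -4.12 on the log2 scale) lay within that of *Fabp5* (-4.48 to -3.68). Adipocyte markers added up to 173 RPKM in K36M cells against 456 in WT cells at D2, and 87.6 against 1000.4 at D7. Of the 5 counted, 3 were over 2-fold lower at D2 and 5 at D7, with 0 higher. *Adipoq* went against the sum at D2, at 10.6 RPKM in K36M and 6.16 in WT cells (not over 2-fold). Preadipocyte markers added up to 172 RPKM in K36M cells against 347 in WT cells at D0, with 1 of 6 higher and 2 lower. They added up to 144 against 58.7 at D2 and 679 against 304 at D7, with 3 of 6 higher and 0 lower each time. Their part in the results was not tested. *Acsl4* was 1.43- to 1.94-fold lower on the 3 days, *Slc27a4* held 70.5% to 111% of WT, and *Slc27a1* 64.9% to 137%. The 3 days share no library, but they share the 2 cell lines.

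In cells with ectopic PPARγ the question was whether the ligand's action on these genes differs in K36M cells. In WT cells, *Lpl*, *Cd36*, *Fabp4*, *Fabp5* and *Acsl1*, 5 of 8, were over 2-fold higher with Rosi and 0 lower (9.96% and 5.05% of 11753 genes). In K36M cells, 4 of 8 were higher, without *Fabp5* (1.65-fold), and 0 lower (7.90% and 8.85% of 11870 genes). *Cd36* was 72.8-fold higher with Rosi in WT cells and 60.3-fold in K36M cells, and *Fabp4* 22.3-fold and 16.5-fold. For *Lpl* the folds were 8.44 and 4.61. *Acsl1* stood apart from these in size, at 31.3-fold in WT cells (log2 ratio 4.97, interval 4.82 to 5.12) and 3.18-fold in K36M cells (1.67, 1.44 to 1.90).

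**Figure D2:**
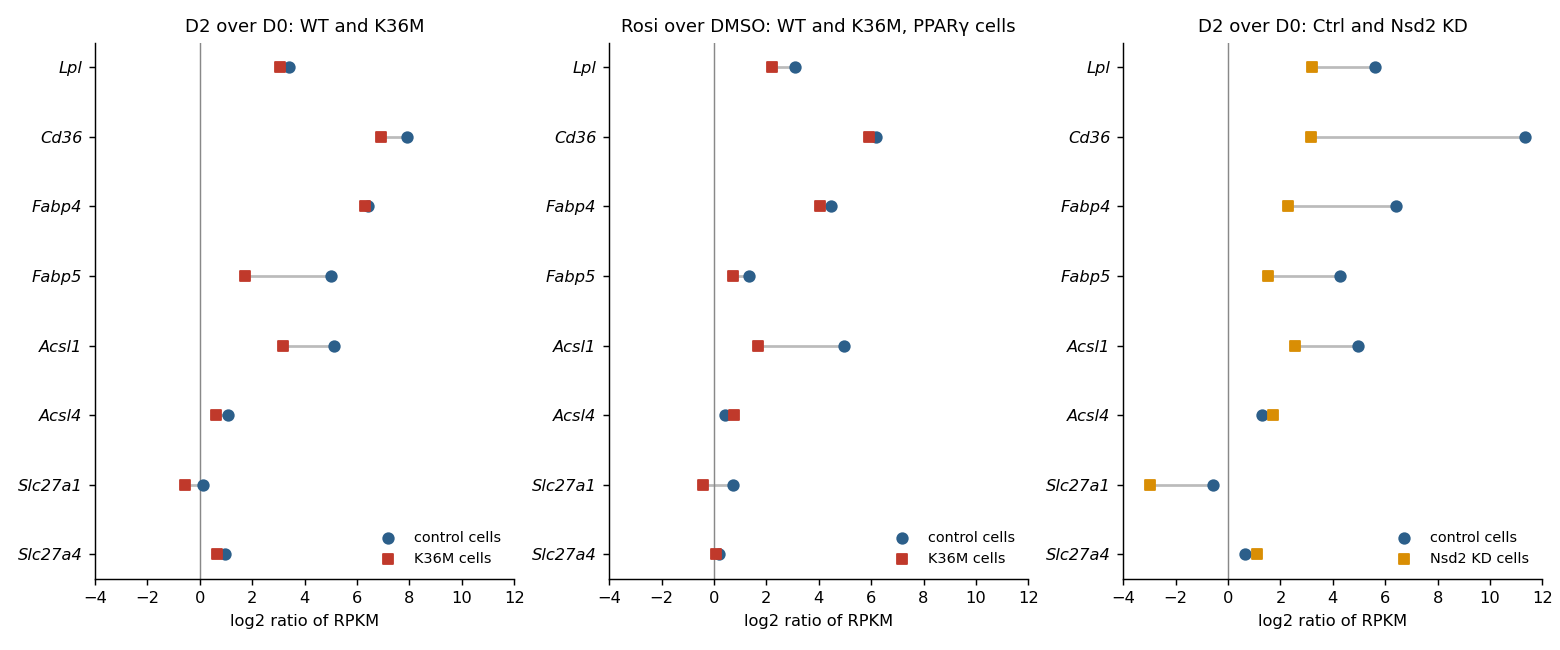
Log2 ratio of RPKM of 8 genes for D2 over D0 (left and right panels) and Rosi over DMSO (middle), circles for control cells and squares for K36M or Nsd2 KD cells, joined for each gene, 1 library per condition. The circle and the square lie close together for *Fabp4* in the left panel (6.43 and 6.31) and far apart for *Fabp5* (5.01 and 1.73) and, in the middle panel, for *Acsl1* (4.97 and 1.67).

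Comparing K36M with WT cells that both carried PPARγ, 1 of 8 genes was over 2-fold lower with DMSO, *Cd36* (5.29-fold, 18 reads in the K36M library), and 0 were higher (3.11% and 5.09% of 11690 genes). With Rosi, *Acsl1* (17.6-fold), *Cd36* (6.39-fold), *Fabp5* (2.97-fold), *Lpl* (2.62-fold) and *Fabp4* (2.18-fold) were lower, 5 of 8, and 0 higher, with 12.1% of 11987 genes lower and 7.02% higher. The transcript of *Pparg*, which includes the ectopic copy, measured 60.2 and 56.8 RPKM in the WT cells (DMSO and Rosi) and 71.8 and 42.6 in the K36M cells. *Cebpa*, encoding the adipogenic factor C/EBPα, measured 36.2 and 187 for the WT pair and 7.98 and 10.3 for the K36M pair. Adipocyte markers added up to 660.0 RPKM in the WT cells with Rosi and 96.4 in the K36M cells with Rosi. These sums include *Pparg* (56.8 and 42.6 RPKM), and with it the ectopic copy. The muscle marker sums given above moved the other way. Preadipocyte markers added up to 134 RPKM in the WT cells with Rosi and 78.1 in the K36M cells with Rosi. Of the 5 counted, 2 were over 2-fold lower in K36M cells (*Pdgfra* and *Ly6a*) and 1 higher (*Thy1*). The part of these markers in the results was not tested.

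For Nsd2, Ctrl cells were first compared between D2 and D0. The 6 genes over 2-fold higher, of 8, were *Lpl*, *Cd36*, *Fabp4*, *Fabp5*, *Acsl1* and *Acsl4*, and 0 were lower (11.3% and 16.1% of 11980 genes). The fold was 85.5 for *Fabp4*, 48.4 for *Lpl*, 31.2 for *Acsl1*, 19.3 for *Fabp5* and 2.45 for *Acsl4*, and that of *Cd36* rested on 1 read at D0 (log2 ratio 11.33, interval 8.86 to 16.64). In Nsd2 KD cells, 6 of 7 genes were higher at D2, *Lpl* (9.12-fold), *Acsl1* (5.94-fold), *Fabp4* (4.82-fold), *Acsl4* (3.29-fold), *Fabp5* (2.91-fold) and *Slc27a4* (2.15-fold), and 1 was lower, *Slc27a1* (7.81-fold), with 11.8% and 16.8% of 11796 genes. *Cd36* did not reach 1 RPKM in either knockdown library and was not counted. Induction of *Lpl*, *Fabp4*, *Fabp5* and *Acsl1* was thus present but smaller than in Ctrl cells, with differences of -4.15 to -2.39 on the log2 scale, and that of *Acsl4* and *Slc27a4* larger by 0.42 and 0.47.

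Nsd2 KD cells were then compared with Ctrl cells. At D0, *Acsl1* (2.27-fold), *Fabp5* (2.31-fold) and *Fabp4* (2.07-fold) were lower, 3 of 7, and *Slc27a1* was 2.86-fold higher (log2 ratio 1.52, interval 1.28 to 1.75), with 10.8% of 11982 genes lower and 6.61% higher. The intervals of the 3 lower genes span the 2-fold line. At D2, *Cd36*, *Fabp4*, *Fabp5*, *Acsl1* and *Lpl* were lower by 128-, 36.7-, 15.3-, 11.9- and 10.3-fold, 5 of 8, and 0 were higher, with 9.57% of 11561 genes lower and 4.88% higher. The median log2 ratio at D2 was -3.47 over the 8 genes and -0.05 over all genes. *Acsl4* held 75.7%, *Slc27a4* 87.6% and *Slc27a1* 54.3% of Ctrl. At D2 adipocyte markers added up to 23.5 RPKM in Nsd2 KD cells against 158 in Ctrl cells, and preadipocyte markers to 37.2 against 49.1. Of the 5 preadipocyte markers counted, 4 were over 2-fold lower, beside 9.57% of all genes. The 1 higher (4.88% of all genes) was *Dlk1*, at 27.9 against 3.51 RPKM. The part of these markers in the results was not tested. *Pparg* measured 26.4 and 16.9 RPKM in Nsd2 KD cells (D0 and D2) against 12.5 and 37.7 in Ctrl cells, and *Cebpa* 0.239 and 4.80 against 14.7 and 78.7.

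**Figure D3:**
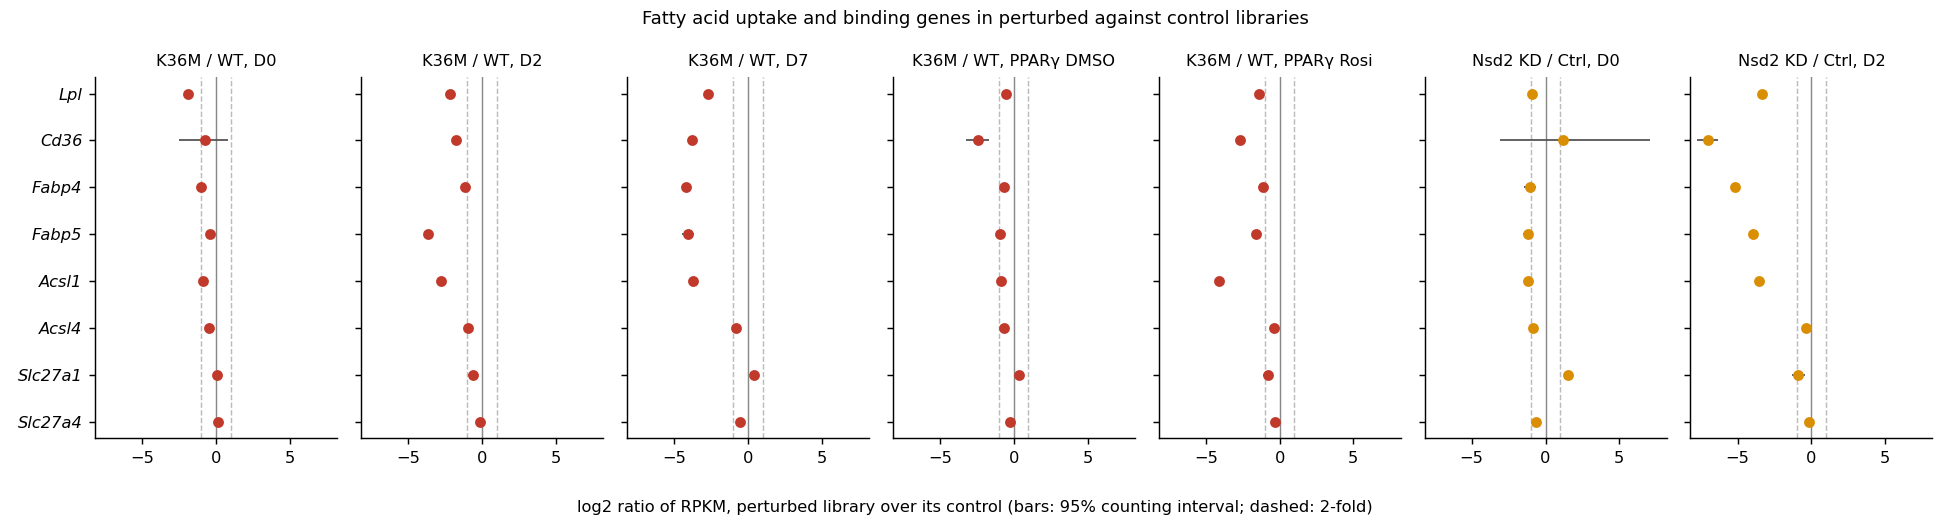
Log2 ratio of RPKM of 8 genes in K36M over WT cells (red, 5 panels) and Nsd2 KD over Ctrl cells (amber, 2 panels), with 95% counting intervals and dashed lines at 2-fold. *Lpl*, *Cd36*, *Fabp4*, *Fabp5* and *Acsl1* lie left of the 2-fold line at D2, D7 and with Rosi, and *Acsl4*, *Slc27a1* and *Slc27a4* lie between the lines in those 4 panels.

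The same 5 genes were over 2-fold lower in K36M cells at D2, at D7 and with Rosi, and in Nsd2 KD cells at D2. Control cells of the 3 experiments, which carried different constructs and are not replicates, also differed. At D0, WT cells held 9.17-fold more *Lpl* than Ctrl cells, 2.88-fold more *Acsl4*, 2.53-fold more *Fabp4* and 2.37-fold more *Acsl1*. *Cd36* was 10.2-fold higher, on 11 reads against 1. The *Lpl* gap between controls at D0 was thus wider than that between K36M and WT cells (3.67-fold). At D2 WT cells held 2.00-fold more *Lpl*, 2.47-fold more *Acsl4*, 2.56-fold more *Fabp4* and 2.62-fold more *Acsl1*, while *Cd36* and *Fabp5* were within 1.35-fold. WT cells at D0 were also set beside WT cells with PPARγ and DMSO, which the study describes as sub-confluent. *Pparg* itself measured 13.4 RPKM without the ectopic copy and 60.2 with it. *Cd36* (7.60-fold), *Fabp4* (2.99-fold) and *Fabp5* (2.35-fold) were lower in the cells without ectopic PPARγ. *Lpl* (2.87-fold), *Acsl4* (2.77-fold) and *Acsl1* (2.50-fold) were higher in those cells.

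RPKM is scaled by length, so isotypes can be compared within a library. *Fabp4* exceeded *Fabp5* in 12 of 14 libraries. The ratio on the 3 days was 2.51, 6.75 and 31.5 for WT cells, and 1.63, 39.1 and 28.5 for K36M cells. With PPARγ it went from 3.20 to 28 with Rosi in WT cells and from 3.80 to 38.1 in K36M cells. In Ctrl cells it went from 0.802 to 3.55, and in Nsd2 KD cells from 0.895, with an interval that holds equal levels, to 1.48. The highest ratios were in K36M cells at D2 and with Rosi.

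*Acsl1* and *Acsl4* changed places. *Acsl4* was the higher in all 6 uninduced libraries, where the ratio of *Acsl1* to *Acsl4* was 0.289 to 0.446. *Acsl1* was the higher in WT cells at D2 (6.02) and D7 (6.47), with Rosi (9.45) and in Ctrl cells at D2 (5.67). In K36M cells the ratio was 1.68 at D2 and 0.865 at D7, and 0.682 with Rosi. It was 0.629 in Nsd2 KD cells at D2. The 4 induced control libraries thus had *Acsl1* ahead by 5.67- to 9.45-fold, and the 4 induced K36M or Nsd2 KD libraries lay at 0.629 to 1.68. The 3 *Acsl4* transcripts had mean levels of 21.7 to 22.6 RPKM and share most reads. Adding them up therefore counts the same reads more than once and lowers these ratios. The 4 induced controls then lay at 1.91 to 3.20 and the other 4 induced libraries at 0.212 to 0.569. The fall of K36M cells at D2 below 1 under this sum is thus not a second estimate of the ratio. For the transporters, *Slc27a4* exceeded *Slc27a1* in 12 of 14 libraries, and the 2 exceptions were K36M cells at D7 (ratio 1.36) and Nsd2 KD cells at D0 (1.53). The lowest ratio was in Nsd2 KD cells at D2 (0.0909).

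**Figure D4:**
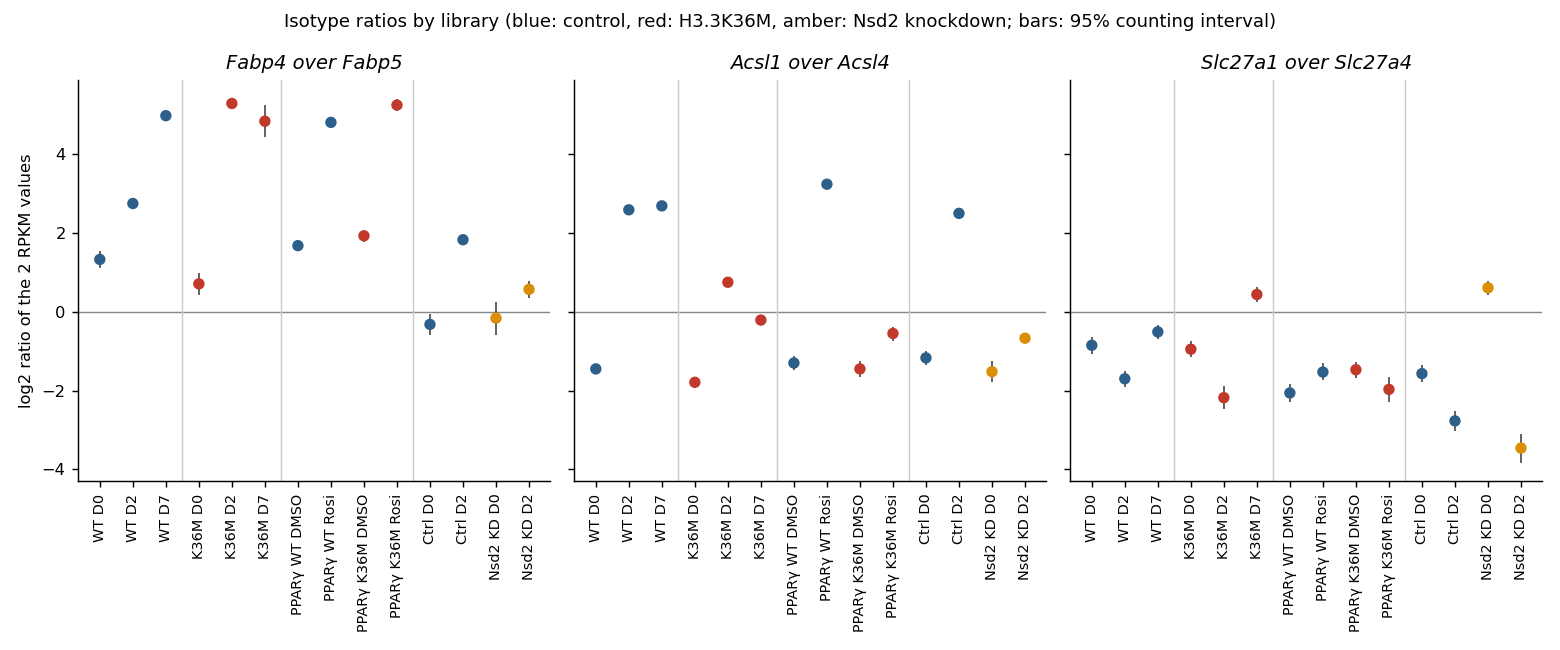
Log2 ratio of the RPKM of 2 isotypes within each of 14 libraries, with 95% counting intervals, blue for control cells, red for K36M and amber for Nsd2 KD, and 0 meaning equal RPKM. In the middle panel the 4 induced control libraries lie at 2.50 to 3.24 and the 4 induced K36M or Nsd2 KD libraries at -0.67 to 0.75.

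Likeness of pattern was described by Pearson's r of log2(RPKM + 1) over the 14 libraries, which share cell lines and controls, so r carries no p. Among genes reaching 5 RPKM, those most like *Cd36* were *Plin1*, *G0s2* and *Lipe* (0.980, 0.973 and 0.972), genes of the lipid droplet and its lipolysis. *Fabp4* was closest to *Ephx2*, *Arxes1* and *Cidec* (0.977, 0.974 and 0.971), and *Acsl1* to *Sort1*, *Adipor2* and *Prkar2b* (0.970, 0.969 and 0.967). *Lpl* was closest to *Prkce*, *Saraf* and *Bckdhb* (0.945, 0.939 and 0.932) and *Fabp5* to *Gpd1l*, *Hsd17b10* and *Abhd15* (0.948, 0.892 and 0.891). The steadier genes had other neighbours. *Acsl4* was closest to *Tank*, *Btbd1* and *Cdc37l1* (0.968, 0.959 and 0.958), *Slc27a1* to *Abhd4*, *Vps11* and *Zfp219* (0.905, 0.899 and 0.885), and *Slc27a4* to *Akr7a5*, *Aarsd1* and *C2cd2l* (0.936, 0.926 and 0.914). Within the group r was 0.94 for *Cd36* and *Fabp4*, 0.93 for *Lpl* and *Acsl1*, and -0.46 for *Slc27a1* and *Slc27a4*.

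Among partners of lipoprotein lipase, *Angptl4*, encoding an inhibitor of the enzyme, was, like *Lpl*, higher at D2 and with Rosi in both WT and K36M cells, but its K36M level was 91.3% of WT at D2 and 153% with Rosi. It measured 21.0, 198 and 24.0 RPKM in WT cells at D0, D2 and D7 and 12.4, 181 and 29.6 in K36M cells, and with PPARγ 42.7 (DMSO) and 399.7 (Rosi) for the WT pair and 56.5 and 611 for the K36M pair. With Rosi the K36M level was thus 1.53-fold above WT (log2 ratio 0.61, interval 0.58 to 0.65) where *Lpl* was 2.62-fold below. In Nsd2 KD cells it was 3.36-fold above Ctrl at D0 and 2.85-fold below at D2. *Lrp1*, a receptor for lipoprotein remnants, was within 1.62-fold of WT in K36M cells on all 3 days, and 2.32-fold below WT with PPARγ and Rosi (45.9 against 106 RPKM). Of the 11 partners measured, 6 were counted in K36M against WT cells at D2, with 1 higher (*Lipg*) and 0 lower, beside 11.2% and 4.37% of all genes. In Nsd2 KD against Ctrl cells at D2, 5 were counted, with 0 higher and 3 lower (*Angptl4*, *Vldlr* and *Lrp1*), beside 4.88% and 9.57%. Between D0 and D2 in WT cells, 2 of 6 were higher at D2 (*Angptl4* and the VLDL receptor gene *Vldlr*) and 1 lower (*Angptl8*, 1.41 and 0.0605 RPKM), beside 9.38% and 17.3%.

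Among other binding protein genes, the 2 of highest mean level were *Dbi* and *Crabp1*. *Dbi*, encoding the acyl-CoA binding protein, was 5.51-fold higher at D2 than at D0 in WT cells (31.1 and 171 RPKM). At D7 the K36M library was 2.65-fold below the WT library (84.4 against 224 RPKM), and at D2 6.70-fold lower in Nsd2 KD than in Ctrl cells (11.9 against 79.5 RPKM). *Crabp1*, encoding a cellular retinoic acid binding protein, measured 55.8, 14.4 and 19.3 RPKM in K36M cells at D0, D2 and D7 and 2.08, 0.706 and 0 in WT cells. In Nsd2 KD cells it measured 10.1 and 0 against 7.58 and 0.0670 in Ctrl cells.

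Of 9 other acyl-CoA synthetases measured, 6 were counted in K36M against WT cells at D7, with 1 higher (*Acsbg1*) and 1 lower, *Acss2*, the acetyl-CoA synthetase gene of lipogenesis, which measured 40.4 RPKM in WT and 8.99 in K36M cells, beside 11.7% and 8.46% of all genes. *Acsl5* stayed between 4.73 and 20.0 RPKM in all libraries. It exceeded both *Acsl1* and *Acsl4* in the 2 libraries with PPARγ and DMSO (20.0 RPKM in WT and 15.1 in K36M cells). The same held at D0 in Ctrl cells (12.8 RPKM) and Nsd2 KD cells (9.89 RPKM), and narrowly in K36M cells at D7 (19.3 RPKM). Of 4 other transport proteins, *Slc27a3* alone was counted at D2 in K36M against WT cells (6.45 against 3.79 RPKM, not over 2-fold). It was 2.79-fold above WT at D7 (16.4 against 5.87 RPKM) and 2.26-fold with PPARγ and DMSO, and it was 2.06-fold above Ctrl in Nsd2 KD cells at D0, the library in which *Slc27a1* was also above Ctrl. *Slc27a6* peaked at 1.36 RPKM.

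Of 12 membrane partners, *Cav1* encodes caveolin-1, the coat protein of caveolae. On the 3 days *Cav1* measured 107, 432 and 526 RPKM for WT cells and 109, 182 and 151 for K36M cells, with 93.9 (DMSO) and 151 (Rosi) for the WT pair with PPARγ and 69.8 and 27.6 for the K36M pair. With Rosi the K36M library was thus 5.48-fold below the WT library, and 5 of the 11 partners counted were lower (*Cav1*, *Cav2*, *Cavin1*, *Cavin2* and *Scarb1*) and 1 higher (*Fyn*), beside 12.1% and 7.02% of all genes. At D7, 4 of 11 were lower (*Cav1*, *Cav2*, *Cavin2* and *Scarb1*) and 1 higher (*Lyn*), beside 8.46% and 11.7%. In Nsd2 KD cells *Cav1* measured 37.4 and 25.3 RPKM against 45.1 and 177 in Ctrl cells, and at D2 3 of 10 partners were lower and 0 higher, beside 9.57% and 4.88%. In K36M against WT cells at D2, 3 of 11 were higher (*Cavin2*, *Got2* and *Lyn*) and 2 lower (*Cav1* and *Cav2*), beside 11.2% and 4.37%. *Cavin1* was within 1.11-fold of WT in K36M cells on all 3 days of adipogenesis.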

How the data were processed

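RNA-Seq had been done on 14 cultures, 1 per condition (20 ChIP-Seq samples and inputs were not analysed here). The authors deposited RPKM for 29082 RefSeq transcripts per library, that is, reads divided by transcript length and by mapped reads. The submitters' processing notes name CASAVA 1.8.2 and build mm9, and the RNA-Seq mapper and counter are not given in the sources used here. Symbols were matched for 28436 transcripts with a RefSeq table of GRCm38.p6 (names only), and gene positions come from GENCODE M1 on NCBIM37 (mm9). Whole reads were recovered from the RPKM for 26945 of the 26946 transcripts seen in 2 or more libraries (total reads per library 12213559 to 24365867), and gave exact Clopper-Pearson intervals at 95% for ratios and a floor of 3 reads. PCR copies are not independent molecules, so intervals and floors cover counting error only.

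A gene counted when it had at least 1 RPKM in at least 1 of 2 libraries, and was called at a ratio over 2-fold, with no pseudocount. Libraries with Poisson reads were simulated for WT D2 against WT D0 (13473 transcripts). The intervals of unchanged transcripts with at least 100 expected reads held 0 in 94.9% of cases. The simulated reads and the intervals assume the same counting error, so this checked the calculation only, and not for transcripts with fewer reads. The 9 genes, the lists of partners (each described by the 2 genes of highest mean RPKM) and the markers were chosen with earlier results of these data known. For 8 genes the 3 most similar genes were named, and *Vldlr*, *Lipg*, *Acsbg1* and other partners are named where they make up a count. The counts over the list of other binding proteins are not reported here. The alternatives were other minimum levels, pseudocounts, folds, scaling and the sum over transcripts. Analysis used Python 3.11.15 with pandas 2.3.3 and scipy 1.17.1.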

Additional observations from a re-analysis of the deposited data

Results flagged for a closer look

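Some genes lay in opposite directions under the same contrast in 2 settings. With 1 library per condition the difference was not tested in any of these cases. *Cd36* was higher at D7 than at D2 in WT cells (log2 ratio 1.62, interval 1.55 to 1.69) and lower in K36M cells (-0.40, -0.61 to -0.19). *Slc27a1* was higher in Nsd2 KD than in Ctrl cells at D0 (1.52, 1.28 to 1.75) and lower at D2 (-0.88, -1.32 to -0.46). It was higher with Rosi in WT cells with PPARγ (0.72, 0.44 to 1.02) and lower in K36M cells (-0.42, -0.77 to -0.08). In the same 4 libraries its K36M over WT ratio was 0.36 with DMSO and -0.78 with Rosi. In adipogenesis its K36M over WT ratio was -0.62 at D2 and 0.45 at D7. *Slc27a4* gave the narrowest case, with K36M over WT ratios of 0.16 at D0 (interval 0.00 to 0.31, and a ratio of 0.06 when rescaled by the median gene) and -0.15 at D2 (-0.29 to -0.02).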

How the results depend on the processing

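No paired analysis was possible because the groups compared share fewer than 2 replicate numbers, with 1 library per condition, so no replicate could be left out. A model pooling settings was not run. Of 137 counts of genes recomputed under alternatives, 121 were within 1.5 times the reported count and 16 were not. With a pseudocount of 0.1 or 1, with a fold of 3, or with the counting interval wholly beyond 2-fold, the 2 genes higher in WT cells at D7 than at D2 became 1. The 2 genes lower in K36M than in WT cells at D0 became 1 with a pseudocount of 1, a fold of 3 or the interval beyond 2-fold. The 3 genes lower in Nsd2 KD than in Ctrl cells at D0 became 1 with a pseudocount of 1, 6 with a fold of 1.5, and 0 with a fold of 3 or the interval beyond 2-fold. With PPARγ and DMSO, the 1 gene lower in K36M cells became 0 with a minimum of 5 RPKM or a pseudocount of 1, and 5 with a fold of 1.5. The 5 genes lower with Rosi became 2 with a fold of 3, and the 3 lower in K36M cells at D7 than at D2 became 5 with a fold of 1.5. With Rosi, *Lpl*, *Fabp4* and *Fabp5* lay between 2-fold and 3-fold. Rescaling each pair by its median ratio moved the log2 ratios by at most 0.11 and changed no count by over 1.5 times, and of 468 recomputed ratios 1 changed sign, that of *Slc27a1* in K36M against WT cells at D0, which was not called (0.06, and -0.03 when rescaled). The log2 ratio of *Cd36* in Ctrl cells (11.33) was 8.39 with a pseudocount of 0.1 and 5.28 with a pseudocount of 1. Adding up RefSeq transcripts that share reads left 18 of 42 isotype ratios above 1, against 19. The ratio of *Acsl1* to *Acsl4* in K36M cells at D2 went from 1.68 to 0.569, as the sum counts shared *Acsl4* reads more than once. Depth limits *Cd36* at D0 and *Gpihbp1* throughout.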
